A study of Mus musculus with 9 samples.

Results

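The genes described here are the protein-coding mouse genes named Zfp followed by a number that granulosa cells expressed before the ovulatory stimulus. They were selected on measured values. A member had a symbol of exactly that form, was not Zfp36, and reached 2 FPKM or more in all 3 libraries taken at 0 h (FPKM is fragments per kilobase of transcript, scaled to mapped fragments). This left 263 of the 337 protein-coding genes with such a symbol, among 25059 gene identifiers in all. Granulosa cells are the hormone-producing support cells of the ovarian follicle, arranged around the oocyte. They came from Kunming mice at postnatal day 21, all of which had received 5 IU of PMSG, a gonadotropin preparation that drives follicle growth. The 1 h and 6 h groups were collected that long after 5 IU of hCG, which acts on the LH receptor and starts ovulation. The 0 h group was collected 48 h after PMSG without hCG. Each time had 3 libraries, 9 in all. No label says that these came from separate animals or pools, so p-values measure the spread between libraries, which may be technical. No unstimulated library of a matched hour was analysed here, so hours after hCG and hours of the day cannot be told apart.

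Zfp genes encode proteins with C2H2 zinc fingers, short loops that fold around a zinc ion and, in arrays, read DNA sequence. The largest group also carries a KRAB domain, which recruits TRIM28 and with it the histone methyltransferase SETDB1, and many of these proteins silence retroelements. Their messenger RNAs are known from several mammalian cell types as a class with short half-lives. FPKM values measure levels, so nothing below is a half-life.

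Before hCG, granulosa markers had the highest summed level of the cell types listed. All 10 granulosa markers on a list that included Fshr, Foxl2 and Cyp19a1 reached 1 FPKM in every 0 h library. Their summed level was 9161 to 9771 FPKM, most of it from Inha and Inhba (means of 5413 and 2294 FPKM). The 1 FPKM limit did not set these markers apart. At 0 h, 9 of 10 oocyte, 9 of 10 theca and stroma and 5 of 6 endothelial markers also reached it. So did 2 of 6 leukocyte and 4 of 4 erythroid markers. The granulosa sum reached 9652 to 14480 FPKM in the 1 h libraries and 3760 to 4165 FPKM in the 6 h libraries. Oocyte markers summed to 42.7 to 67.7 FPKM at 0 h, 56.2 to 67.3 FPKM at 1 h and 77.2 to 116 FPKM at 6 h. Of the 9 that were tested, all were called higher at 6 h against 0 h and 5 at 6 h against 1 h. Theca and stroma markers summed to 199 to 316, 266 to 419 and 108 to 135 FPKM at 0, 1 and 6 h. Endothelial markers summed to between 15.4 and 28.8 FPKM over all libraries, leukocyte markers to between 3.64 and 9.23 FPKM, and erythroid markers to between 69.5 and 203 FPKM. Whether these shifts have a part in the results below was not tested. In a bulk sample, fewer cells of a type and less RNA per cell cannot be told apart. Summed over all genes, FPKM came to between 491920 and 495500 in the 0 h libraries, 527034 and 570986 in the 1 h libraries and 513434 and 539279 in the 6 h libraries.

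One hour after hCG, the Zfp transcripts as a class stood below their level at 0 h. The median level was 7.38, 7.62 and 8.03 FPKM in the libraries at 0 h, 6.13, 7.20 and 6.07 FPKM at 1 h, and 8.49, 9.10 and 8.45 FPKM at 6 h. The 1 h libraries were the lowest and the 6 h libraries the highest, with no overlap between times. Over the same libraries the median of all 14535 genes tested lay between 9.60 and 9.86 FPKM. Together the members summed to 2829 ± 105 FPKM at 0 h, 2643 ± 70.6 FPKM at 1 h and 3237 ± 27.6 FPKM at 6 h (SD, n = 3 each). Their share of all FPKM averaged 0.574% before hCG, then 0.480% after 1 h and 0.615% after 6 h. Of the 263 members, 169 had their lowest library at 1 h and 122 had their highest library at 6 h. Replicate 2 at 1 h lay nearer to 0 h than the others. It held the lowest value of 15 members, against 76 in replicate 1 and 78 in replicate 3.

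**Figure D1:**
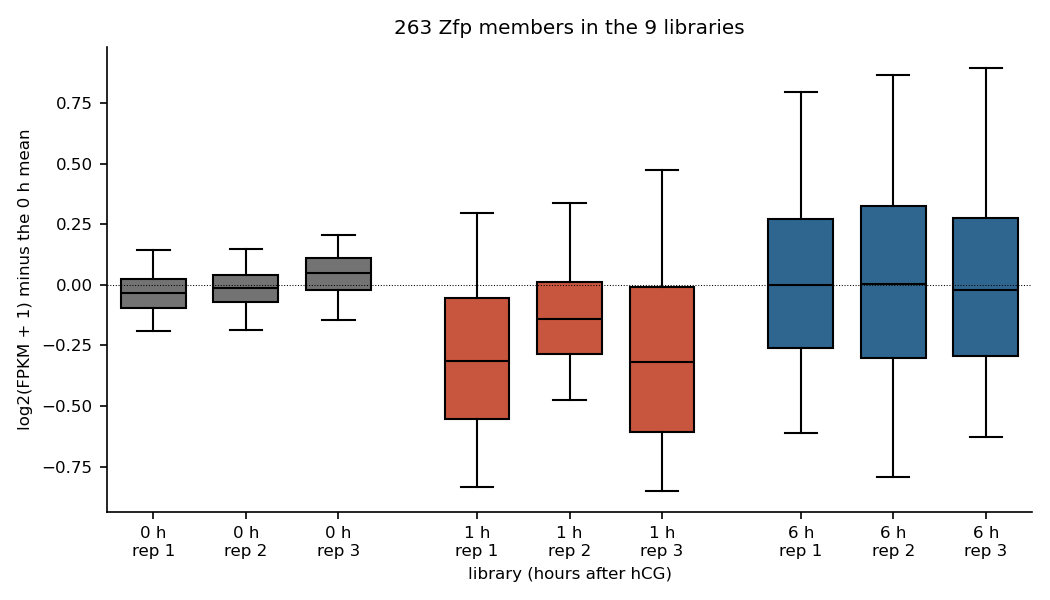
Log2(FPKM + 1) of the 263 Zfp members in each of the 9 libraries, after subtracting each member's mean at 0 h. Boxes span the quartiles, the line is the median and whiskers reach the 5th and 95th percentiles. The boxes of replicates 1 and 3 at 1 h sit lowest, replicate 2 at 1 h lies between them and 0 h, and the 6 h medians lie close to 0 with a wider spread.

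Changes were fitted for all 14535 genes with limma on log2(FPKM + 1), and calls used an adjusted p (Benjamini-Hochberg) below 0.05. All 263 members passed the filter on low values, which asked for 1 FPKM in 3 libraries and so could not remove a member. At 1 h against 0 h, 66 members were called lower and 11 higher. Among all genes tested, 5.98% were called lower and 9.68% higher. Among the 10758 protein-coding genes that met the same limit at 0 h, the shares were 5.93% and 10.1%. The members' median log2 change was −0.25, with quartiles of −0.47 and −0.03, against a median of −0.01 over all genes. All 3 libraries at 1 h lay below all 3 at 0 h for 130 members, a pattern that 17.2% of all genes tested had. On the log2(FPKM + 1) scale 0 called decreases and 3 called increases reached 2-fold, and by mean FPKM 3 decreases and 4 increases did. The 0 h values chose the members, so these counts are a description and support nothing further. With members chosen instead by 2 FPKM or more in all 1 h libraries, 48 of 224 were called lower and 11 higher, with a median of −0.20.

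The number of members called lower at 1 h depended on single libraries, while the median did not change sign. It was 37, 34 and 27 without replicate 1, 2 or 3 at 0 h, 23 without replicate 1 at 1 h, 21 without replicate 3 at 1 h and 98 without replicate 2 at 1 h. The median log2 change stayed between −0.29 and −0.22 in all 9 of these fits. With FPKM scaled to an equal sum per library, 138 members were called lower and 11 higher, and the median of all genes itself moved to −0.14 while that of the members moved to −0.39.

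The log2 changes of 6 h against 1 h used no library that chose the members. The spread behind the calls came from all 9 libraries, those at 0 h included, so the calls are not free of that choice. At 6 h against 1 h, 115 members were called higher and 23 lower. Over all genes tested, 26.7% were called higher and 26.9% lower. Over the protein-coding genes at the same 0 h level, 27.2% were called higher and 29.2% lower. The members called higher were 43.7% of the class, above the background share, and the members called lower were below it. The median log2 change was 0.27, with quartiles of 0.04 and 0.49, against 0.00 over all genes. All 3 libraries at 6 h lay above all 3 at 1 h for 127 members, against a background of 30.5%. The 2 comparisons share the 1 h libraries, so they are not independent of each other.

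Against 0 h, the members at 6 h did not lean one way. There were 64 called higher and 52 called lower, with a median log2 change of −0.02. Both shares were under those of all genes tested, at 28.8% higher and 27.9% lower, and under those of protein-coding genes at the same 0 h level, at 29.4% and 30.2%. With FPKM scaled to an equal sum the split was 51 higher and 65 lower. The 52 decreases came to 27 without replicate 3 at 0 h and to 34 without replicate 2 at 6 h. Called changes of 2-fold or more numbered 10 upward and 4 downward on the log2(FPKM + 1) scale, and 11 upward and 6 downward by mean FPKM.

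**Figure D2:**
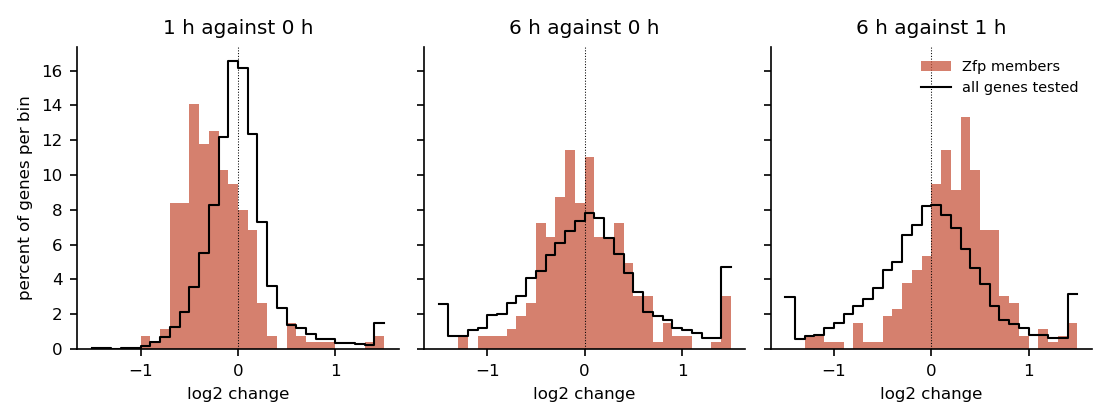
Share of genes per bin of log2 change (width 0.1, log2(FPKM + 1) scale) for the Zfp members as bars and all genes tested as a line, in the 3 comparisons. The end bins also hold all larger changes. The bars lie left of the line at 1 h against 0 h (medians −0.25 and −0.01) and right of it at 6 h against 1 h (medians 0.27 and 0.00).

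The members differed widely in level before hCG. Mean FPKM at 0 h ran from 2.14 to 93.4, with quartiles of 4.97 and 13.5 around a median of 7.66. It was under 5 FPKM in 66 members and over 20 FPKM in 32. Zfp207, which encodes the spindle-assembly protein BuGZ, was the most abundant. It had 90.6, 93.4 and 96.2 FPKM at 0 h, 88.0, 90.7 and 91.3 FPKM at 1 h and 117, 118 and 114 FPKM at 6 h. Its 6 h libraries stood above all others, and its log2 change at 6 h against 1 h was 0.37 ± 0.05 (SE, adjusted p = 0.000309, limma). Zfp277 was second, and Zfp950, Zfp740 and Zfp266 followed. Zfp266, a KRAB-type gene, had 40.04, 40.02 and 46.7 FPKM at 0 h, 36.6, 36.6 and 34.7 FPKM at 1 h and 29.5, 29.8 and 29.9 FPKM at 6 h. Its groups did not overlap, and it fell by 0.27 on the log2 scale at 6 h against 1 h (adjusted p = 0.0101, limma). Zfp740 had a log2 change of 0.29 ± 0.07 (SE) in the same comparison (adjusted p = 0.00666, limma). Zfp950 was uneven at 6 h, with 65.6, 17.6 and 17.3 FPKM, and was called in no comparison.

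Low-level members had larger median changes at 1 h than abundant ones on the log2 scale, although adding 1 FPKM shrinks the changes of low genes most. Of the 66 members under 5 FPKM at 0 h, 20 were called lower and 1 higher at 1 h, with a median log2 change of −0.38. Of the 165 between 5 and 20 FPKM, 44 were called lower and 8 higher, with a median of −0.23. Of the 32 above 20 FPKM, 2 were called lower and 2 higher, with a median of −0.09. Over all genes tested, 5.98% were called lower and 9.68% higher. The 0 h level both set these classes and is part of the change, and their difference was not tested.

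Members just inside the 2 FPKM limit were Zfp960, Zfp667 and Zfp940, whose lowest 0 h libraries stood at 2.01, 2.05 and 2.10 FPKM. Just outside were Zfp108, Zfp560 and Zfp82, at 1.96, 1.96 and 1.92 FPKM.

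Among the 11 members called higher at 1 h, Zfp703 led. Its human counterpart ZNF703 is a transcriptional corepressor of the NET family, and the protein held no match to the usual finger spacing. Zfp703 had 10.5, 11.9 and 10.7 FPKM at 0 h, 56.4, 48.5 and 70.9 FPKM at 1 h and 21.7, 25.3 and 25.3 FPKM at 6 h. The 3 times did not overlap, and the peak was at 1 h. Its log2 change was 2.29 ± 0.13 at 1 h against 0 h (SE, adjusted p = 3.17e-06, limma) and −1.23 ± 0.13 at 6 h against 1 h (adjusted p = 3.35e-05).

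Zfp52, a KRAB zinc finger gene of chromosome 17, rose at both times. It had 13.5, 15.3 and 13.4 FPKM at 0 h, 45.0, 32.2 and 40.2 FPKM at 1 h and 113, 115 and 102 FPKM at 6 h. Its 6 h libraries stood next to those of Zfp207, the leading member at 0 h. Its log2 change was 1.40 ± 0.11 at 1 h against 0 h (SE, adjusted p = 4.24e-05, limma) and 1.48 ± 0.11 at 6 h against 1 h (adjusted p = 5.05e-06).

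Further KRAB genes from the same stretch, Zfp948 and Zfp53, and the zinc finger gene Zfp189 had the same order of times. Zfp948 had 6.40, 7.62 and 6.53 FPKM at 0 h, 19.1, 15.8 and 20.5 FPKM at 1 h and 32.9, 32.4 and 29.0 FPKM at 6 h. Zfp189 had 4.69, 6.03 and 5.14 FPKM at 0 h, 13.3, 9.00 and 12.2 FPKM at 1 h and 18.9, 19.1 and 14.9 FPKM at 6 h. In each of these genes every 1 h library was above every 0 h library and below every 6 h library. Zfp516, whose protein is known in mice as a regulator of brown fat genes, had 13.5, 15.9 and 12.2 FPKM at 0 h, 24.5, 21.2 and 26.6 FPKM at 1 h and 30.6, 32.4 and 27.4 FPKM at 6 h. The log2 changes at 1 h were 1.31 for Zfp948, 0.98 for Zfp189, 0.86 for Zfp53 and 0.76 for Zfp516, with adjusted p = 0.00335 or less (limma).

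The 6 largest called decreases at 1 h were those of Zfp41, Zfp763, Zfp3, Zfp551, Zfp11 and Zfp709. Zfp41 had 18.1, 19.4 and 20.9 FPKM at 0 h, 8.52, 13.3 and 8.14 FPKM at 1 h and 7.84, 8.89 and 12.9 FPKM at 6 h. It stayed below every 0 h library at both later times, with a log2 change of −0.93 ± 0.20 at 1 h (SE, adjusted p = 0.0125, limma) and −0.94 ± 0.20 at 6 h against 0 h (adjusted p = 0.00259). Zfp3 had 4.21, 3.98 and 3.49 FPKM at 0 h, 1.65, 2.33 and 1.64 FPKM at 1 h and 3.26, 3.11 and 2.96 FPKM at 6 h. It was down at 1 h by −0.77 ± 0.12 (SE, adjusted p = 0.00272) and higher at 6 h against 1 h by 0.52 ± 0.12 (adjusted p = 0.00538). Zfp763 had 4.39, 4.76 and 5.19 FPKM at 0 h, 2.10, 2.98 and 1.78 FPKM at 1 h and 3.41, 3.14 and 2.74 FPKM at 6 h. Its 1 h and 6 h libraries overlapped and both groups lay under 0 h. Zfp709 had log2 changes of −0.70 at 1 h and −0.57 at 6 h, both against 0 h.

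Some of these decreases rested on single libraries. The 1 h call of Zfp41 ended when either replicate 1 or replicate 3 at 1 h was left out (adjusted p = 0.0504 to 0.0543). That of Zfp551 ended under 10 alternatives, with each 0 h library, 1 h replicates 1 and 3 and 6 h replicates 1 and 2 among those left out (adjusted p = 0.0501 to 0.120). That of Zfp11 ended under 7, with each 0 h library and 1 h replicates 1 and 3 among them (adjusted p = 0.0506 to 0.10). The 6 h call of Zfp763 against 0 h ended without replicate 3 at 6 h (adjusted p = 0.0508).

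**Figure D3:**
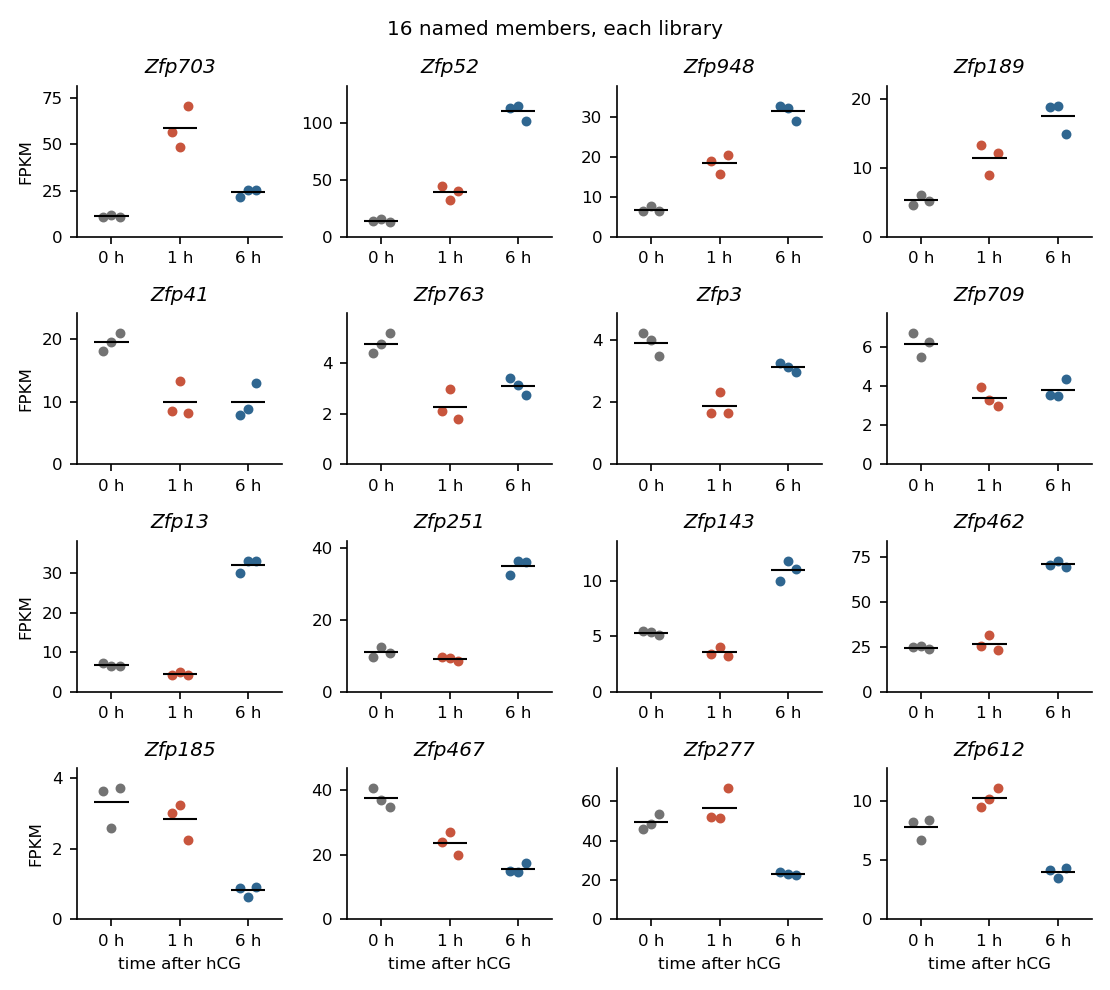
FPKM of 16 named members in each library at 0, 1 and 6 h after hCG, with the mean as a line and each vertical axis starting at 0. Zfp703 peaks at 1 h, Zfp52, Zfp948 and Zfp189 step up at both times, Zfp41, Zfp763, Zfp3 and Zfp709 are lower at 1 h, Zfp13, Zfp251, Zfp143 and Zfp462 are highest at 6 h, and Zfp185, Zfp467, Zfp277 and Zfp612 are lowest at 6 h.

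By 6 h the largest increases over 1 h were those of Zfp13, Zfp251, Zfp52, Zfp143, Zfp462 and Zfp553. Zfp13, a KRAB gene of chromosome 17, had 7.19, 6.50 and 6.53 FPKM at 0 h, 4.32, 4.94 and 4.09 FPKM at 1 h and 30.1, 33.0 and 33.2 FPKM at 6 h. It was lowest at 1 h and highest at 6 h, with no overlap between times. Its log2 change was 2.60 ± 0.09 at 6 h against 1 h (SE, adjusted p = 5.67e-08, limma) and −0.51 ± 0.09 at 1 h against 0 h (adjusted p = 0.00432). Zfp251 had 9.61, 12.3 and 10.7 FPKM at 0 h, 9.61, 9.23 and 8.63 FPKM at 1 h and 32.4, 36.4 and 35.9 FPKM at 6 h. Its 6 h libraries stood apart, with a log2 change of 1.82 ± 0.10 against 1 h (SE, adjusted p = 5.45e-07). Zfp553 had 9.86, 10.5 and 10.4 FPKM at 0 h, 5.56, 7.76 and 5.19 FPKM at 1 h and 16.7, 18.8 and 17.2 FPKM at 6 h. It followed the order of Zfp13, with a log2 change of 1.39 at 6 h against 1 h (adjusted p = 1.36e-05).

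Among members whose 6 h and 1 h libraries did not overlap, the largest called decreases at 6 h against 1 h were those of Zfp277, Zfp703, Zfp612, Zfp820, Zfp185 and Zfp184. Zfp641, whose libraries overlapped, was also called lower (log2 change −0.998, adjusted p = 0.0313, limma), a call that ended under 6 alternatives, with 1 h replicates 2 and 3 and 6 h replicates 2 and 3 among those left out (adjusted p = 0.0503 to 0.105). Zfp277, whose protein binds the ribosomal protein RPS2 in human cells, had 46.1, 48.3 and 53.8 FPKM at 0 h, 51.9, 51.4 and 66.8 FPKM at 1 h and 24.1, 22.9 and 22.7 FPKM at 6 h. The first 2 times overlapped and 6 h lay well under both. Its log2 change at 6 h was −1.24 ± 0.10 against 1 h (SE, adjusted p = 8.12e-06, limma). Zfp612 had 8.24, 6.68 and 8.38 FPKM at 0 h, 9.51, 10.2 and 11.1 FPKM at 1 h and 4.14, 3.50 and 4.29 FPKM at 6 h. Zfp820 had 3.24, 3.11 and 2.73 FPKM at 0 h, 5.42, 4.63 and 6.10 FPKM at 1 h and 2.14, 1.92 and 1.78 FPKM at 6 h. Both KRAB genes had all 3 times apart, with 1 h highest. Zfp184 was also called higher at 1 h (log2 change 0.57) and lower at 6 h against 1 h (−0.77), and the first of these calls was lost when only its most abundant row was used (adjusted p = 0.183).

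Against 0 h, the lowest members at 6 h were Zfp185, Zfp467, Zfp934, Zfp277, Zfp808 and Zfp41. Zfp185 carries a Zfp symbol, yet its protein held no match to the C2H2 spacing, and its human counterpart is a LIM-domain protein of the actin skeleton. It had 3.64, 2.59 and 3.72 FPKM at 0 h, 3.00, 3.23 and 2.25 FPKM at 1 h and 0.881, 0.639 and 0.916 FPKM at 6 h. Zfp467, which influences fat and bone cell fate in mouse marrow stroma, had 40.7, 37.1 and 34.9 FPKM at 0 h, 24.0, 27.0 and 19.9 FPKM at 1 h and 15.01, 14.5 and 17.4 FPKM at 6 h. It was lower at each later time, with log2 changes of −0.65 ± 0.12 at 1 h against 0 h (SE, adjusted p = 0.00479, limma) and −0.56 ± 0.12 at 6 h against 1 h (adjusted p = 0.00261). Zfp934 and Zfp808 had log2 changes of −1.06 and −0.98 at 6 h against 0 h. These 2 genes shared 40.1% and 43.1% of their 50-base windows with the transcripts of other genes, so the counting may have split their reads, and both are uncertain.

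Members known as repressors of imprinted loci and retroelements numbered 5 (Zfp57, Zfp445, Zfp809, Zfp568 and Zfp932). At 1 h against 0 h, 1 was called lower and 0 higher (all genes 5.98% and 9.68%). At 6 h against 0 h 2 were called higher and 0 lower (all genes 28.8% and 27.9%). The count at 6 h against 1 h was 3 higher and 0 lower (all genes 26.7% and 26.9%). Their median log2 changes were −0.09, −0.11 and 0.29 in these comparisons, against about 0.00 over all genes. Zfp57, which maintains methylation at imprinting control regions, had 11.9, 7.80 and 8.92 FPKM at 0 h, 11.9, 10 and 12.01 FPKM at 1 h and 17.1, 18.9 and 20.5 FPKM at 6 h. Its 6 h libraries lay above all others, with a log2 change of 0.69 ± 0.14 at 6 h against 1 h (SE, adjusted p = 0.00245, limma). Zfp57 is also expressed in oocytes, and the summed oocyte markers given above were higher at 6 h too, and the part of oocyte RNA in this rise was not tested. Zfp445, its partner at imprinted loci, averaged 37.2 ± 3.13 FPKM at 0 h, 34.9 ± 0.891 FPKM at 1 h and 34.0 ± 2.21 FPKM at 6 h (SD, n = 3 each) and was called in no comparison. Zfp809, which starts the silencing of endogenous retroviruses in mouse embryonic cells, had 8.28, 8.53 and 9.50 FPKM at 0 h, 6.51, 6.94 and 4.81 FPKM at 1 h and 8.49, 7.28 and 8.45 FPKM at 6 h. It was lower at 1 h by a log2 change of −0.47 (adjusted p = 0.0325), a call that ended under 7 alternatives, with each 0 h library and 1 h replicates 1 and 3 among those left out (adjusted p = 0.0562 to 0.106). Its rise at 6 h against 1 h (0.37, adjusted p = 0.0331) ended under 5, with 1 h replicate 3 and 6 h replicates 1 and 3 among them (adjusted p = 0.0532 to 0.103). Zfp568, a repressor of Igf2, had an adjusted p of 0.0494 at 6 h against 1 h and lost the call under 11 alternatives (adjusted p = 0.0508 to 0.137), which left out 0 h replicate 2, 1 h replicates 2 and 3 and each 6 h library.

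DNA-binding regulators and corepressor partners made up 18 members. Of these, 3 were called higher and 2 lower at 1 h against 0 h, beside 9.68% and 5.98% of all genes. The count was 9 higher and 1 lower at 6 h against 0 h, beside 28.8% and 27.9% of all genes, and 11 higher and 3 lower at 6 h against 1 h, beside 26.7% and 26.9% of all genes. Their medians were −0.07, 0.39 and 0.36. Zfp143, a transcription activator, had 5.45, 5.37 and 5.08 FPKM at 0 h, 3.37, 4.03 and 3.22 FPKM at 1 h and 10.02, 11.9 and 11.0 FPKM at 6 h. The times did not overlap, and 1 h was lowest. Its log2 change was 1.40 ± 0.10 at 6 h against 1 h (SE, adjusted p = 3.32e-06, limma) and −0.48 ± 0.10 at 1 h against 0 h (adjusted p = 0.0123), and that call at 1 h ended without replicate 3 at 1 h (adjusted p = 0.0509).

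Zfp462, a large nuclear protein that restrains cell-fate genes in embryonic stem cells, had 24.6, 25.3 and 23.7 FPKM at 0 h, 25.2, 31.2 and 23.2 FPKM at 1 h and 70.5, 72.9 and 69.2 FPKM at 6 h. The 0 h and 1 h libraries overlapped, and 6 h stood far above them (log2 change 1.40 ± 0.10 against 1 h, adjusted p = 2.64e-06). Zfp217, known in human tumours as a corepressor subunit and oncogene, had 8.02, 7.86 and 7.85 FPKM at 0 h, 5.36, 6.91 and 5.17 FPKM at 1 h and 10.4, 11.5 and 11.5 FPKM at 6 h. It rose by 0.84 at 6 h against 1 h on the log2 scale (adjusted p = 0.000123), a call that ended with the most abundant row alone (adjusted p = 0.119). Its decrease at 1 h (−0.40, adjusted p = 0.0318) ended when any one of the 0 h libraries, 1 h replicate 1 or 1 h replicate 3 was left out, and it turned to 0.54 with the most abundant row alone, among 7 alternatives that ended it (adjusted p = 0.0504 to 0.497). Zfp281, Zfp335, Zfp384 and Zfp687 were also called higher at 6 h against 1 h, with log2 changes of 0.40, 0.68, 0.49 and 0.54. Zfp131, a BTB-type factor, had 18.8, 20.9 and 20.9 FPKM at 0 h, 32.0, 26.2 and 31.4 FPKM at 1 h and 25.6, 26.0 and 20.8 FPKM at 6 h. Its highest values were at 1 h (log2 change 0.54 against 0 h, adjusted p = 0.00885), and its decrease at 6 h against 1 h (−0.30, adjusted p = 0.0386) ended under 8 alternatives, with 0 h replicate 2, 1 h replicates 1 and 3 and 6 h replicate 3 among those left out (adjusted p = 0.0515 to 0.133). The further step of Zfp516 at 6 h against 1 h (0.31, adjusted p = 0.0391) ended under 9, with 0 h replicate 1, 1 h replicates 1 and 2 and 6 h replicates 1 and 2 among them (adjusted p = 0.0522 to 0.853).

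Members that act on RNA, ribosomes, ubiquitin or the spindle numbered 12. At 1 h against 0 h 0 were called in either direction by limma (all genes 9.68% higher and 5.98% lower). At an unadjusted p under 0.05 there was 1 higher and 0 lower. At 6 h against 0 h, 6 were called higher and 2 lower (all genes 28.8% and 27.9%), and at 6 h against 1 h, 5 higher and 2 lower (all genes 26.7% and 26.9%). Their medians were 0.09, 0.16 and 0.15. Zfp706 had 12.6, 13.1 and 11.9 FPKM at 0 h, 13.9, 14.2 and 14.2 FPKM at 1 h and 31.6, 36.1 and 29.7 FPKM at 6 h. Its 6 h libraries stood apart, with a log2 change of 1.14 ± 0.08 against 1 h (SE, adjusted p = 2.88e-06, limma). Zfp598, the ubiquitin ligase that marks collided ribosomes, had 14.4, 14.6 and 15.6 FPKM at 0 h, 17.1, 17.2 and 17.2 FPKM at 1 h and 19.6, 21.6 and 23.2 FPKM at 6 h. Its 3 times did not overlap, and the change at 6 h against 1 h was 0.31 (adjusted p = 0.00679). Zfp326, which couples splicing to transcription in human cells, was lower at 6 h against 1 h by a log2 change of −0.47 (adjusted p = 0.00157).

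The proteins of 262 members could be read from the GENCODE M21 annotation. They held a median of 10 C2H2 finger matches, with a range of 0 to 36, and 255 held at least 1. A KRAB-like match near the start of the protein was found in 138 of 262 (52.7%). The same match was found in 0.470% of 20657 genes with fewer than 3 fingers. At 1 h against 0 h, 39 of the 138 KRAB-match members were called lower and 6 higher, with a median log2 change of −0.36. Of the 124 without the match, 27 were called lower and 5 higher, with a median of −0.15. These were 28.3% lower and 4.35% higher with the match and 21.8% and 4.03% without, beside 5.98% and 9.68% of all genes. By 6 h, against 0 h, KRAB-match members had 19 called higher and 32 lower (median −0.10). Those without the match had 45 called higher and 20 lower (median 0.15). In shares, 13.8% with the match were called higher and 23.2% lower, and 36.3% and 16.1% without it. All genes had 28.8% higher and 27.9% lower. The counts at 6 h against 1 h were 52 higher and 10 lower with the match (median 0.26) and 63 higher and 13 lower without it (median 0.29). That was 37.7% and 7.25% with the match and 50.8% and 10.5% without it, beside 26.7% and 26.9% of all genes. The difference between these classes was not tested.

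Finger number and the KRAB match overlap, since 135 of the 138 KRAB-match members had 5 fingers or more. Among the 76 members with 5 to 9 fingers, the median log2 change at 1 h was −0.45 in the 31 with the match and −0.15 in the 45 without. Among the 88 with 10 to 14 fingers it was −0.37 in the 63 with the match and −0.36 in the 25 without. Among the 55 with 15 or more it was −0.30 in the 41 with the match and −0.16 in the 14 without. The shares called lower at 1 h followed the medians at 5 to 9 fingers, with 29.0% with the match and 17.8% without. They did not at 10 to 14 fingers, with 33.3% and 44.0%, or at 15 or more, with 17.1% and 35.7%. Members with 1 to 4 fingers had a median of −0.11, with 4 of 36 called lower and 0 higher by limma, and 10 lower and 2 higher at an unadjusted p under 0.05. At 1 h, 5.98% of all genes were called lower and 9.68% higher by limma. Of the 14 members with 15 fingers or more and no match, a class picked after its values were seen, 9 were called higher and 0 lower at 6 h against 0 h (median 0.31, all genes 28.8% higher and 27.9% lower). Its difference from the other classes was not tested.

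**Figure D4:**
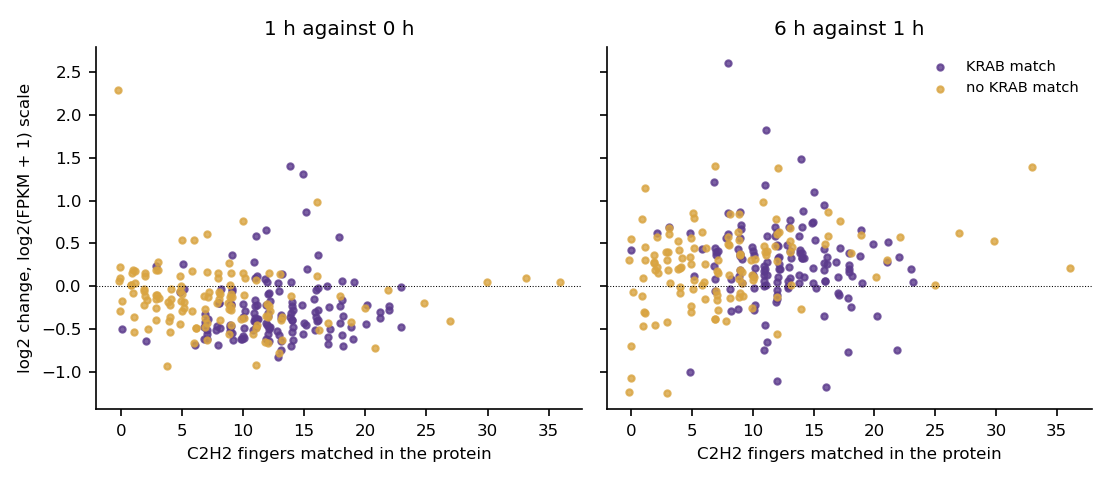
Log2 change of each member against the number of C2H2 finger matches in its protein, for 1 h against 0 h and 6 h against 1 h, coloured by whether the protein held a KRAB-like match. Points are spread slightly sideways. KRAB-match members centre at −0.36 in the first panel and at 0.26 in the second, and members without the match at −0.15 and 0.29.

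The cofactors through which KRAB proteins act were read in the same fit. Of 20 cofactor genes tested, 1 was called higher and 1 lower at 1 h against 0 h, where all genes had 9.68% higher and 5.98% lower. They had 8 higher and 4 lower at 6 h against 0 h (all genes 28.8% and 27.9%), and 4 higher and 2 lower at 6 h against 1 h (all genes 26.7% and 26.9%). The medians were 0.06, 0.15 and 0.08. Trim28, the hub of KRAB silencing, averaged 75.5 FPKM at 0 h, 80.3 FPKM at 1 h and 91.6 FPKM at 6 h. Daxx, a histone H3.3 chaperone, was higher at 6 h against 1 h by 0.74 on the log2 scale (adjusted p = 4.96e-05, limma). Atf7ip, a partner of SETDB1, was uneven at 0 h, with 133, 173 and 52.1 FPKM, and averaged 36.3 FPKM at 1 h. Its call as lower at 1 h (adjusted p = 0.0160, limma) ended without 0 h replicate 1 or 1 h replicate 3 (adjusted p = 0.0601 and 0.0641).

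Genes of deadenylation and decay, which set how fast messenger RNAs disappear, were read beside the class. Of 26 tested, 7 were called higher and 0 lower at 1 h against 0 h by limma, where 10 were higher and 1 lower at an unadjusted p under 0.05. All genes had 9.68% called higher and 5.98% lower there. The counts were 13 higher and 6 lower at 6 h against 0 h (all genes 28.8% and 27.9%). At 6 h against 1 h they were 7 higher and 9 lower. That was 26.9% higher and 34.6% lower, beside 26.7% and 26.9% of all genes. The medians were 0.06, 0.19 and −0.03. Btg1 and Btg2, which recruit the deadenylase CCR4-NOT, averaged 178 and 376 FPKM at 1 h, against 27.7 and 61.0 FPKM at 0 h. Their log2 changes were 2.63 and 2.60. Zfp36l1, which binds AU-rich elements, had a log2 change of 1.34. Whether these genes bear on the level of the Zfp transcripts was not tested.

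Genes of related zinc finger families were read at the same 0 h level. Among 53 Zbtb, Zkscan and Zscan genes, 12 were called lower and 3 higher at 1 h against 0 h (median −0.19). That was 22.64% lower and 5.66% higher, beside 5.98% and 9.68% of all genes. Of the 53 genes, 15 were called higher and 9 lower at 6 h against 0 h (median 0.08). The share called higher, 28.3%, was near the 28.8% of all genes. The share called lower, 16.98%, was under the 27.9% of all genes. At 6 h against 1 h, 23 were called higher and 6 lower (median 0.23). These were 43.4% and 11.32%, beside 26.7% and 26.9% of all genes. Zbtb16, which encodes the factor PLZF, averaged 3.82 FPKM at 0 h, 3.96 FPKM at 1 h and 32.8 FPKM at 6 h (log2 change 2.77 at 6 h against 1 h, adjusted p = 1.26e-07, limma). The decrease of Zbtb45 at 1 h (−0.83, adjusted p = 0.0146) ended when 0 h replicate 1, 1 h replicate 1 or 1 h replicate 3 was left out (adjusted p = 0.0559 to 0.0589). Their difference from the Zfp members was not tested, and the decrease at 1 h is not shown to be particular to genes named Zfp.

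Zfp genes lie in clusters, and the members did too. Chromosome 7 held 63 of 262 members, against 7.47% of 12482 genes tested, and chromosome 17 held 34 (13.0%), against 4.86%. Between 1 h and 0 h, the 63 members of chromosome 7 had 23 called lower and 0 higher by limma, with a median log2 change of −0.36 and the highest at 0.16. Between 6 h and 1 h they had 38 called higher and 1 lower, with a median of 0.40. The 34 members of chromosome 17 had 6 called lower and 5 higher at 1 h (median −0.17), and 13 higher and 3 lower at 6 h against 1 h (median 0.23). Of all genes tested, 5.98% were called lower and 9.68% higher at 1 h, and 26.7% higher and 26.9% lower at 6 h against 1 h. Differences between chromosomes were not tested. With no other protein-coding gene between them, 103 members fell into 40 runs of 2 or more.

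The longest run held 6 members on chromosome 6, between Zfp398 (chr6:47835661-47873537, plus strand) and Zfp746 (chr6:48062395-48086593, minus strand), in mm10. Zfp398 had 7.69, 8.45 and 8.39 FPKM at 0 h, 4.88, 6.15 and 4.10 FPKM at 1 h and 16.3, 15.6 and 8.45 FPKM at 6 h, so replicate 3 at 6 h fell within the 0 h range. Zfp398, Zfp282, Zfp212, Zfp777 and Zfp746 were called higher at 6 h against 1 h, with log2 changes of 1.22, 0.56, 0.42, 0.37 and 0.68. Zfp956 was not called (0.05, adjusted p = 0.840, limma). Zfp746, also named PARIS, represses PGC-1α in neurons. The Zfp777 call at 6 h against 1 h (adjusted p = 0.0401) ended under 9 alternatives, with 0 h replicate 1, 1 h replicates 1 and 3 and each 6 h library among those left out (adjusted p = 0.0539 to 0.429), and it turned to −0.38 with the most abundant row alone.

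In a run of 4 on chromosome 17, 3 members went the other way at 1 h. In chromosome order the run held Zfp51, Zfp53, Zfp52 and Zfp948, the last 3 of which were among the 6 largest increases at 1 h. Zfp53 (chr17:21488998-21510473, plus strand) had 6.52, 8.89 and 6.10 FPKM at 0 h, 15.1, 12 and 14.3 FPKM at 1 h and 32.8, 33.0 and 26.4 FPKM at 6 h. Zfp51 had 6.28, 5.35 and 6.51 FPKM at 0 h, 6.13, 6.73 and 6.05 FPKM at 1 h and 9.64, 9.27 and 6.50 FPKM at 6 h. Its 0 h and 1 h libraries overlapped, and its log2 change at 1 h was 0.05 ± 0.14 (SE, adjusted p = 0.839, limma). Zfp52, Zfp53 and Zfp948 shared 0.869%, 0.497% and 0.116% of their 50-base transcript windows with any other gene, and Zfp51 2.85%. Inexact matches were not examined.

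**Figure D5:**
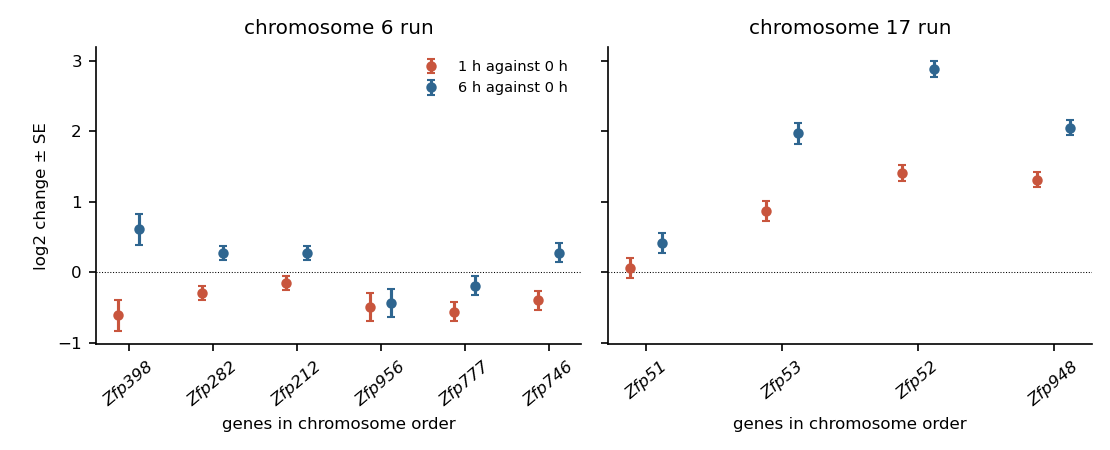
Log2 changes (± SE) against 0 h at 1 h and at 6 h for the members of a chromosome 6 run and a chromosome 17 run, in chromosome order. Zfp53, Zfp52 and Zfp948 lie above 0 at both times, with 1 h changes of 0.86, 1.40 and 1.31, while all 6 members of the chromosome 6 run lie below 0 at 1 h.

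The promoters of the 3 neighbours that rose together are shown because their sequences can be compared directly. Each is the RefSeq window of 250 bases before to 50 bases after the gene start (GRCm38.p6), and the capitals mark the longest stretch that all 3 share, of 12 bases.
Zfp53, chr17:21488738-21489037, plus strand: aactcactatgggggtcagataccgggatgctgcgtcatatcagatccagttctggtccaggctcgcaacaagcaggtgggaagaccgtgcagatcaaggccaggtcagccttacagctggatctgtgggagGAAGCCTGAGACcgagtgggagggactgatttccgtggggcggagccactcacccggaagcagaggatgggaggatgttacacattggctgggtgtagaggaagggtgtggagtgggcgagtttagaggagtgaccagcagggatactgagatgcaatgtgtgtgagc
Zfp52, chr17:21535289-21535588, plus strand: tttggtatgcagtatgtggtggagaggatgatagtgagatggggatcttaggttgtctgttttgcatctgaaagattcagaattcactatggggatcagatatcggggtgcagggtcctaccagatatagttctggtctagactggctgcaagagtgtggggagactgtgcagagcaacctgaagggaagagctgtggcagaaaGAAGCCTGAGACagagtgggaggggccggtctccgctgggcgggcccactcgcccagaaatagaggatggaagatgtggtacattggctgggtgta
Zfp948, chr17:21566728-21567027, plus strand: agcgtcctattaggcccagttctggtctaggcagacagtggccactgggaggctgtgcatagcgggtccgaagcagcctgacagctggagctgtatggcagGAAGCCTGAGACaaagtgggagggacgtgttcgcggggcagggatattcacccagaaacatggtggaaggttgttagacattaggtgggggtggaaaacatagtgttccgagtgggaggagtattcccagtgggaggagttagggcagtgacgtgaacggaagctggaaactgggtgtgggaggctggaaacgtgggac
Counted from the gene start, the stretch began at −118 in Zfp53, −46 in Zfp52 and −149 in Zfp948. The promoter of Zfp51, the member of the run that was not called at 1 h, was not compared. How often neighbouring Zfp genes share a stretch of this length was not examined, so it is not shown to mark the genes that rose. The letters TGACG, the core of the cyclic AMP response element, were searched on both strands. They stood in 6 of the 11 promoters listed for 9 members called higher at 1 h, those of Zfp53 and Zfp948 among them. They also stood in 34.2% of 263 member promoters, 30.5% of promoters of genes tested and 20.8% of all 32851 promoters. The full letters TGACGTCA stood in 0 of those 11, in 3.04% of member promoters and in 1.79% of all. A match is no evidence that the site is bound.

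A second pattern was common in the class. The letters CTACA and TCCCA with 2 free bases between them are core letters of the element described for human ZNF143, whose mouse gene Zfp143 is itself a member. The pattern was searched on both strands after a member promoter had been seen to hold it. Of 216 members with a promoter in the RefSeq table, 39 held it (18.1%), against 335 of 8019 other protein-coding genes at the same 0 h level (4.18%). It stood in 1.54% of all promoters. The 8 windows below belong to the members with the pattern that changed most at 6 h against 1 h among those called. Each is 40 bases on the strand of the gene (GRCm38.p6), with the pattern or its reverse complement in capitals.
Zfp85, chr13:67755194-67755233, minus strand: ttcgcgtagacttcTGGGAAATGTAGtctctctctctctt
Zfp1, chr8:111643402-111643441, plus strand: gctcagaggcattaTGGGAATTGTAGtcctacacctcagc
Zfp358, chr8:3493100-3493139, plus strand: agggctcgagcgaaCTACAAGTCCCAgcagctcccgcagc
Zfp14, chr7:30051384-30051423, minus strand: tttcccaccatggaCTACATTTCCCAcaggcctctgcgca
Zfp60, chr7:27731331-27731370, plus strand: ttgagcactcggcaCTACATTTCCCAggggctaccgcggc
Zfp180, chr7:24081859-24081898, plus strand: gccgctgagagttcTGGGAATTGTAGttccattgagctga
Zfp84, chr7:29768514-29768553, plus strand: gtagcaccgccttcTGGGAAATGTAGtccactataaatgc
Zfp334, chr2:165388353-165388392, minus strand: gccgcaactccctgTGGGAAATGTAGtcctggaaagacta
Capitals that begin with C show the pattern on the strand of the gene, and those that begin with T show it on the opposite strand. All 8 members were called higher at 6 h against 1 h, but being called in that comparison was part of how they were chosen. Of all 39 members with the pattern, 18 were called higher and 2 lower there. Zfp358 had 11.5, 12.3 and 11.1 FPKM at 0 h, 7.86, 8.56 and 8.18 FPKM at 1 h and 15.3, 15.7 and 15.6 FPKM at 6 h. Zfp1 had 7.57, 7.20 and 6.84 FPKM at 0 h, 4.94, 7.69 and 6.17 FPKM at 1 h and 12.4, 12.02 and 11.7 FPKM at 6 h. Zfp60 had 9.35, 8.84 and 9.73 FPKM at 0 h, 4.96, 7.16 and 5.27 FPKM at 1 h and 8.62, 11.0 and 9.24 FPKM at 6 h. The first 2 of these ended above their 0 h level, while Zfp60 at 6 h overlapped it.

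Members with the pattern were compared with those without it. At 1 h against 0 h, 14 of the 39 with it were called lower and 1 higher (median −0.39), and 42 of the 177 without it were called lower and 8 higher (median −0.23). In shares, 35.9% with it and 23.7% without it were called lower, and 2.56% and 4.52% higher. All genes had 5.98% lower and 9.68% higher. Between 6 h and 1 h, 18 members with the pattern were called higher and 2 lower (median 0.38), and 74 without it were called higher and 17 lower (median 0.21). That was 46.2% and 41.8% higher, beside 26.7% of all genes, and 5.1% and 9.6% lower, beside 26.9%. Other protein-coding genes with the pattern had medians of −0.02 and 0.03 in these comparisons. Of these 335 genes, 7.46% were called lower and 6.57% higher at 1 h, and 28.7% higher and 25.1% lower at 6 h against 1 h. No difference between these groups was tested, and binding of ZFP143 was not measured.

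The annotated transcripts of the members had a median of 5 exons, against 9 over the 12482 genes tested, and a 3′ UTR of 1201 bases, against 937. The AU-rich letters ATTTATTTA stood in the 3′ UTR of 20 of 262 members (7.63%), against 5.50% of genes tested. Within the class, Spearman's rho with the log2 change at 1 h was −0.05 for 3′ UTR length, −0.01 for the number of ATTTA letters, −0.17 for finger number, 0.24 for exon number and 0.33 for the mean at 0 h (n = 262). These describe genes that share libraries and, for the last, the 0 h values themselves.

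Near-identical copies limit what can be said of some members. Over 10% of 50-base windows were shared with another gene in 31 of 262 members, with Zfp935 at 100% and Zfp433 and Zfp960 at 94.1% and 82.7%, and these are uncertain. The symbol Zfp865 stood on 2 identifiers, both of which met the limit. A few members had uneven libraries. Zfp641 had 3.23, 7.66 and 12.03 FPKM at 1 h, and Zfp691 had 5.97, 6.31 and 17.8 FPKM at 1 h, and neither was called against 0 h.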

How the data were processed

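RNA-seq of mouse granulosa cells was analysed for 9 libraries, 3 each at 0, 1 and 6 h after hCG. Per the labels, Trizol was used for RNA and a TruSeq RNA kit for the libraries. The submitters' processing notes give HISAT2 2.0.5 and build mm10. The deposited values are FPKM per row, made by the authors with a program, annotation and filters not given in the sources used here. Reads could not be recovered, since 9364 to 9682 rows per library lay between 0 and 0.001 FPKM, so depth is unknown and no counting interval is given. Strandedness is not stated in the labels, and genes that overlap may share reads.

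Rows were summed per gene identifier, and 27 symbols stored as dates were restored. Genes tested (14535) had to reach 1 FPKM in 3 libraries, and were fitted as log2(FPKM + 1) with limma 3.58.1 (R 4.3.3, trended variance). All 9 libraries entered 1 fit of 3 group means, without covariate, and p-values were adjusted by Benjamini-Hochberg over all genes. The scale understates changes of low genes. Fingers were matched as C2H2 spacing and KRAB as a short pattern in the longest annotated protein (GENCODE M21), a description and not a domain call. Promoters came from RefSeq (GRCm38.p6), with 216 members matched. The members and all gene lists were chosen with earlier results of these data known. Named members are the 6 highest and 6 lowest called, non-overlapping changes per comparison, the 5 most abundant at 0 h, called members of the role lists, those beside the limit and the longest run. Others named, among them further role-list genes and those in the chromosome 17 run, the promoter windows and the uneven or near-identical genes, were picked after their values were seen. Alternatives were another pseudocount, no filter, 2 scalings, the most abundant row, no trend, a replicate block, other member limits and each library left out.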

Additional observations from a re-analysis of the deposited data

How the results depend on the processing

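Across 19 alternatives, the members' median log2 change stayed negative at 1 h against 0 h and positive at 6 h against 1 h. Leaving out 1 library each, members called lower at 1 h against 0 h ranged from 21 to 98 (median change −0.29 to −0.22), those called higher from 11 to 12, members at 6 h against 0 h from 54 to 70 higher and 27 to 61 lower, and at 6 h against 1 h from 89 to 127 higher and 18 to 24 lower. Such fits hold fewer libraries. Scaling FPKM to an equal sum gave 138 members lower at 1 h (median −0.39, all genes −0.14) and a median of −0.093 at 6 h against 0 h. With a limit of 5 FPKM, 34 of 182 members were lower at 6 h against 0 h (median 0.058). The cause was not tested. Of 140 calls of named genes, 40 were lost under at least 1 alternative, and 3 turned with the most abundant row alone, where Zfp777 had 0.024 at 1 h against 0 h and −0.38 at 6 h against 1 h, and Zfp217 had 0.54 at 1 h against 0 h. The replicate block gave 55 members lower and 14 higher at 1 h against 0 h, 64 higher and 47 lower at 6 h against 0 h, and 104 higher and 21 lower at 6 h against 1 h. Same-numbered libraries had correlations of deviations between −0.08 and 0.15 over all genes, so the numbers were not taken as pairs. Depth is unknown, and 3 libraries per time limit the precision.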

Other observations

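Zinc finger genes outside the class were read in the same fit. Among 45 genes with 3 or more fingers and a KRAB match that carry other names, at 2 FPKM or more in all 0 h libraries, 14 were called lower and 1 higher at 1 h against 0 h by limma (median log2 change −0.43). At 6 h against 0 h, 20 were called lower and 1 higher (median −0.39), and at 6 h against 1 h, 10 higher and 5 lower (median −0.01). Of all genes, 5.98% were called lower and 9.68% higher at 1 h, and 27.9% lower and 28.8% higher at 6 h against 0 h. Between 6 h and 1 h, 26.7% of all genes were called higher and 26.9% lower. At 6 h against 0 h, the 138 Zfp members with a KRAB match had 32 called lower and 19 higher (median −0.10). The difference was not tested. Among 122 finger genes without a KRAB match and with other names, 24 were called higher and 16 lower at 1 h against 0 h (median −0.05). That was 19.7% higher and 13.1% lower, beside 9.68% and 5.98% of all genes.

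The 17 Zfp genes with a letter after the number had 6 called lower and 0 higher at 1 h against 0 h by limma, and 11 lower and 0 higher at an unadjusted p under 0.05 (median −0.35). At 6 h against 1 h, 10 were called higher and 1 lower (median 0.35, all genes 26.7% higher and 26.9% lower). Of the Zfp genes under the 2 FPKM limit, 40 were tested. They had 5 called lower and 0 higher at 1 h by limma, and 15 lower and 0 higher at an unadjusted p under 0.05 (median −0.30). Beside both sets, 5.98% of all genes were called lower and 9.68% higher at 1 h by limma.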
